A study of Homo sapiens with 6 samples.

Results

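The autophagy machinery and its cargo receptors were followed in HDQ-P1 cells, a human breast carcinoma line, as a group of 42 named genes out of 40295 in the deposited gene table. The genes were chosen by name from what they do and were sorted into 7 roles: the ULK1 kinase complex, the PI3-kinase complex, effectors of its lipid product, conjugation enzymes, LC3 and GABARAP proteins, cargo receptors and adaptors. All 42 had a row in the table, and 41 had enough reads to be tested. The series held 6 bulk RNA-seq libraries: 3 from untreated cells and 3 from cells given 1 μM Y-320, a phenylpyrazoleanilide compound, for 48 h. The study used them to look for pathways that the compound alters. The labels give the untreated cells no solvent, so the compound and any solvent cannot be told apart. They also do not say that the replicates came from separate cultures, and all p-values measure only the spread between these libraries, which may be technical.

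Macroautophagy encloses cytoplasm in a double membrane, the autophagosome, and delivers it to the lysosome. The ULK1 kinase complex starts the process, the PI3-kinase complex makes the lipid PI3P on the forming membrane, WIPI proteins read that lipid, and ATG2 and ATG9 proteins supply membrane. A pair of ubiquitin-like conjugation reactions then attaches LC3 and GABARAP proteins to the membrane, where cargo receptors bind them while holding ubiquitinated proteins, organelles or stretches of endoplasmic reticulum. An mRNA level measures neither the proteins nor autophagic flux, and neither was measured in these libraries.

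Library totals ran from 21045401 to 22740535 estimated counts, and a single count was worth 0.0438 to 0.0480 CPM (counts relative to normalized library size). Mitochondrial genes took 1.65% to 1.78% of the counts. Chi-square per degree of freedom between libraries was 1.99 to 2.95 within a group and 39.91 to 41.98 between groups, so no library was a copy of another and none stood apart from its group. All 6 epithelial markers were detected, and their summed level was 7497 to 7815 CPM in untreated and 4747 to 4787 CPM in Y-320 libraries. Of these markers KRT8, KRT18, KRT19 and CDH1 fell, while EPCAM and CLDN4 rose. Among the immune markers, CD3E and LYZ were too low to test and PTPRC did not pass. CD68, a lysosomal protein of macrophages, and CSF1R rose, and the list's sum was 41.0 to 43.9 CPM in untreated and 79.7 to 84.5 CPM in Y-320 libraries. Most of that sum was CD68, at 36.5 ± 1.20 CPM untreated and 69.7 ± 3.37 CPM with Y-320 (SD, n = 3). The 6 fibroblast markers summed to 249.7 to 285.1 CPM and 126.9 to 147.2 CPM, with 4 lower, and the 4 endothelial markers to 17.7 to 19.3 CPM and 14.3 to 18.3 CPM, with PECAM1 higher and CDH5 lower. These shifts moved with the treatment and with every result below, and their part in those results was not tested. All libraries came from the same cell line, so these lists name genes and do not count cells of other types. In bulk RNA, fewer cells that express a marker and less RNA per cell cannot be told apart.

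With Y-320, 17 of the 41 tested autophagy genes rose, 3 fell and 21 did not pass the test (edgeR's quasi-likelihood test, Benjamini-Hochberg adjusted p under 0.05). The share that rose was 41.5%, where 26.2% of all 16580 genes tested rose, or 32.5% of the 10692 genes that averaged 10 CPM or more. The share that fell was 7.32%, where 25.4% of all genes fell, or 30.8% of the better expressed ones. Taken in either direction, 20 of 41 passed, close to the 51.5% of all genes that did. Upper-quartile scaling of the libraries in place of TMM (trimmed mean of M-values) gave 17 higher and 7 lower. The median log2 fold change of the 41 genes was 0.08, beside 0.00 for all genes tested, and their median size of change was 0.12, beside 0.21. The autophagy genes were also more highly expressed than the typical gene tested, with a median of 45.4 CPM in untreated cells against 20.5 CPM.

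Only some of the genes that rose did so by a large amount. With 0.5 log2 units as the limit, 8 of the 41 tested members had risen, beside 1400 of all 16580 genes tested (8.44%). They were WIPI1, MAP1LC3B, ATG101, SQSTM1, ULK1, ATG4A, ATG16L2 and OPTN. In edgeR, DESeq2 and limma-voom 0 had fallen by as much, where 7.28% of all genes had in edgeR. An unadjusted p does not alter this, since the largest fall was that of EPG5, at -0.31. At the other end, 17 of the 41 had log2 fold changes within 0.1 of 0, beside 4284 of all 16580 genes tested. Every Y-320 library was above every untreated library for 19 of the 41 members, beside 4948 of all 16580 genes tested (29.8%). All were below for 6 of the 41, beside 4874 of all genes (29.4%), and the groups overlapped for 16. As the plot of genes by role shows, each role except the adaptors held at least 1 gene that rose and at least 2 that did not pass the test.

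**Figure D1:**
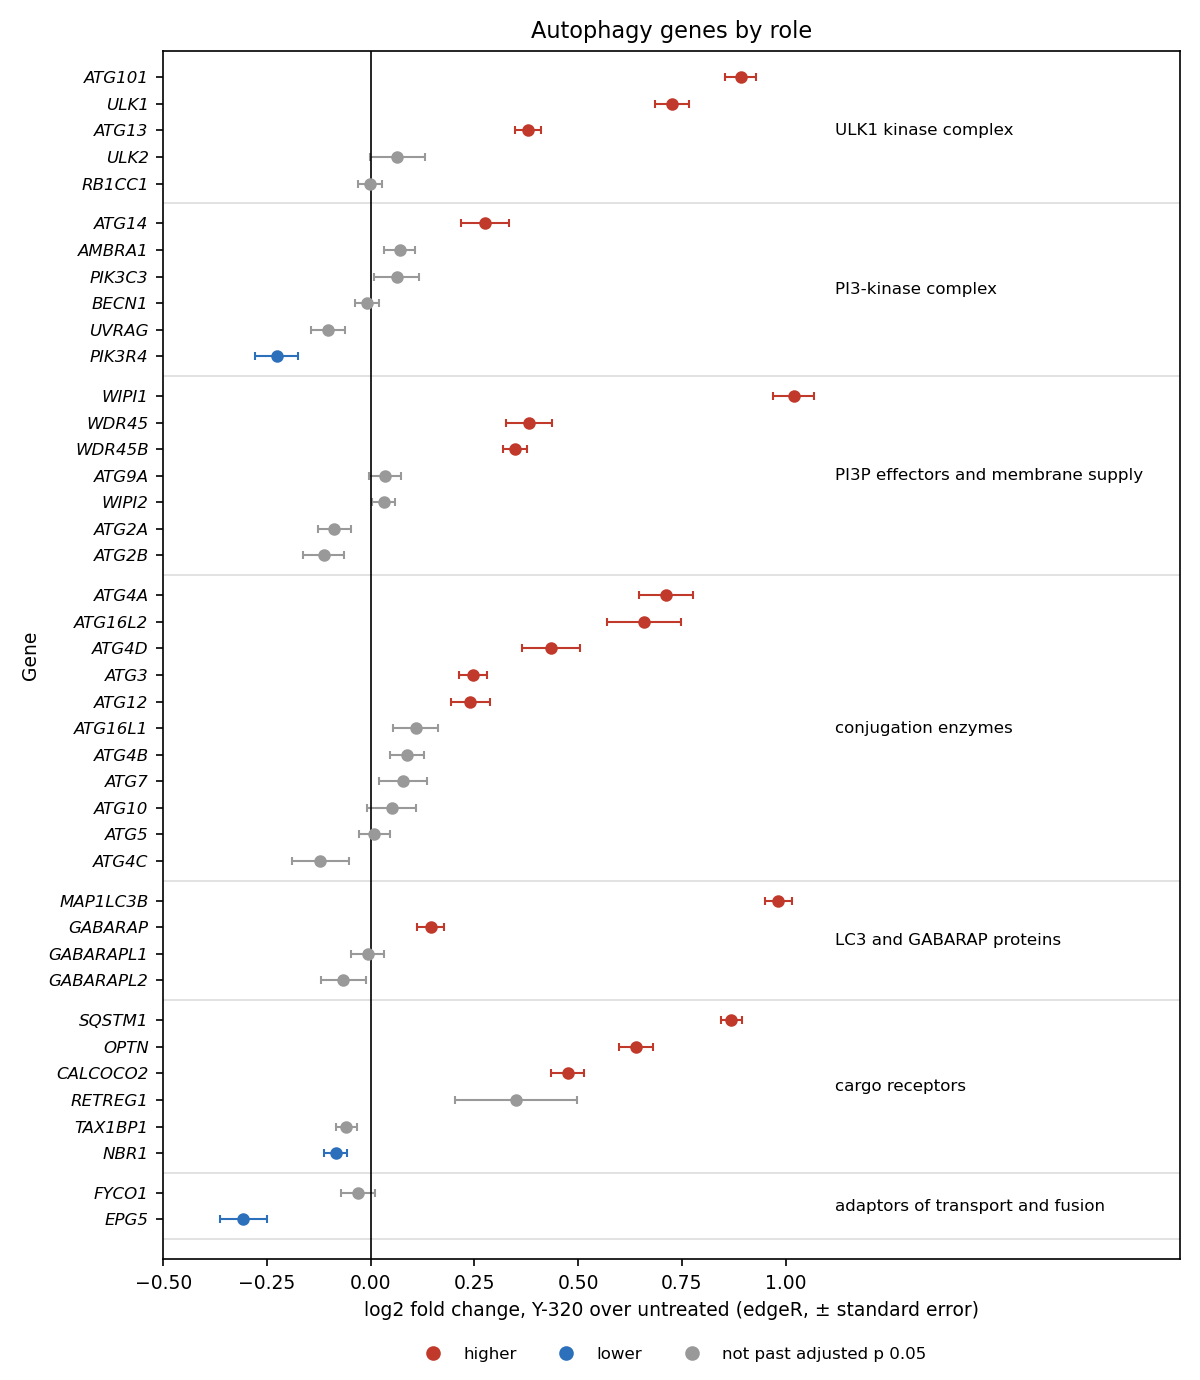
Log2 fold change of each of the 41 tested autophagy genes with Y-320 over untreated (x axis, points with ± 1 standard error from edgeR, 3 libraries per group), grouped by role and ordered by size within it (y axis). Red points rose, blue points fell and grey points did not pass an adjusted p of 0.05; values run from -0.31 for EPG5 to 1.02 for WIPI1.

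Motifs that stress and nutrient regulators are known to bind were looked for around the annotated starts of the genes, because several members rose together. RefSeq promoter windows (GRCh38.p14, 250 bases before to 50 after a start) were found for 36 of the 42 genes, 47 windows in all, and were not matched for RB1CC1, UVRAG, WDR45B, ATG4D, MAP1LC3A and EPG5. The ATF4-C/EBP element TGATGNAA lay in the window of 1 member, WDR45 (2.13% of the member windows), and in 3.62% of all 35116 windows. The CLEAR core TCACGTGA, a site of the TFEB family, lay in that of ATG3 (1 window, 2.13% of the member windows) and in 0.980% of all windows. The E-box CACGTG, which that core contains, lay in those of ATG3 and ATG14 (4.26% of the member windows) and in 7.26% of all. The antioxidant response element core TGACNNNGC lay in 4 members (8.51% of the member windows), namely ATG101, MAP1LC3B, CALCOCO2 and RETREG1, and in 13.3% of all windows. CCAAT boxes were in 31.9% of member windows and 34.6% of all. Both strands were searched, and a match is a run of letters, not a measured binding site. None of the 4 listed motifs other than CCAAT was found in the windows of WIPI1, SQSTM1, ULK1, ATG4A, ATG16L2 or OPTN.

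Of the matches to these regulator motifs in genes that rose, all but a second E-box of ATG3 are shown with 10 bases on each side; capitals mark the motif and each is read on the strand of its gene. That of ATG101 lies 120 bases before the RefSeq start, inside a GENCODE exon of ATG101, and that of MAP1LC3B lies 46 bases before it, in annotated UTR. The CALCOCO2 match lies 129 bases before the start with no GENCODE feature there. The CLEAR core of ATG3 begins 5 bases after the start in its UTR, and the E-box not shown lies 18 bases before the start. The E-box of ATG14 lies 21 bases before the start with no feature, and the ATF4-C/EBP element of WDR45 lies 6 bases before it in annotated UTR.
ATG101 (chr12:52069848-52069876, plus strand): tgtgcttctgTGACTACGCggatgttgtg
MAP1LC3B (chr16:87392280-87392308, plus strand): gcgagtcaccTGACCAGGCtgcgggctga
CALCOCO2 (chr17:48830896-48830924, plus strand, motif as its reverse complement): cgctcctgggGCCCGGTCAcctgaacact
ATG3 (chr3:112561941-112561968, minus strand): gagtctagtgTCACGTGAggccccggtg
ATG14 (chr14:55411836-55411861, minus strand): aacaaaatccCACGTGactggctctc
WDR45 (chrX:49079876-49079903, minus strand): aagtagggccTGATGTAAacacccgagc

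Within the ULK1 kinase complex, 3 of 5 genes rose and none fell. ATG101 encodes the subunit that stabilizes ATG13 in the complex and lies at chr12:52069246-52077495 on the plus strand (hg38, GENCODE 44). Its normalized levels were 32.9, 31.4 and 30.7 CPM in the untreated libraries and 58.5, 58.4 and 59.3 CPM with Y-320. The groups were far apart and each was tight, and the log2 fold change was 0.89 (SE 0.0375, edgeR adjusted p = 2.71e-08). Of the 31-base words in its transcripts, 17.9% also occur in ENSG00000257663, a gene without a row in the deposited table. ULK1, the kinase itself (chr12:131894622-131923150, plus strand), was at 47.0, 47.4 and 48.2 CPM in untreated cells and at 74.4, 79.8 and 81.9 CPM with Y-320. The lowest treated library was well above the highest untreated one, a log2 fold change of 0.73 (SE 0.0410, edgeR adjusted p = 2.05e-07). ATG13, the regulatory subunit that mTORC1 phosphorylates, went from 61.7 ± 1.20 to 80.3 ± 1.35 CPM (SD, n = 3), a smaller rise of 0.38 log2 units (edgeR adjusted p = 3.43e-06).

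The remaining genes of the complex did not pass. ULK2, the kinase related to ULK1, was at 24.0 ± 1.91 CPM untreated and 25.04 ± 1.49 CPM treated (SD, n = 3), with an adjusted p of 0.458 by edgeR and a 95% interval of the log2 fold change from -0.07 to 0.20. RB1CC1, also called FIP200, the large scaffold of the complex, was at 99.1 ± 1.88 and 99.1 ± 1.99 CPM (SD, n = 3), with an interval of -0.06 to 0.06. Per kilobase of median transcript length, RB1CC1 had the highest level of the complex, at 156 CPM per kb in both groups. With merged exon length it was at 13.02 ± 0.248 and 13.01 ± 0.261 CPM per kb, and ATG101 was below it in untreated cells at 9.91 ± 0.347 and above it with Y-320 at 18.4 ± 0.156 CPM per kb (SD, n = 3).

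Genes of the PI3-kinase complex gave 1 rise and 1 fall among 6. ATG14, the subunit that directs the kinase to autophagosome formation, was at 21.5, 22.3 and 21.8 CPM in untreated libraries and 24.6, 28.4 and 26.4 CPM in Y-320 libraries. The treated values were the more scattered but lay above all untreated ones, and the log2 fold change was 0.28 (SE 0.0577, edgeR adjusted p = 0.00239). Of the 31-base words in ATG14 transcripts, 24.4% also occur in another gene, chiefly FBXO34, which had 175% of the counts of ATG14 and rose by a log2 fold change of 0.23, so the split of reads between these neighbours is uncertain. PIK3R4, the regulatory kinase VPS15, was at 49.1, 47.7 and 47.2 CPM untreated and 44.2, 40.8 and 38.0 CPM with Y-320. It fell without overlap, by 0.23 log2 units (SE 0.0518, edgeR adjusted p = 0.00413).

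Neither the lipid kinase PIK3C3 nor its scaffold BECN1 passed the test. PIK3C3 was at 21.8 ± 0.622 and 22.7 ± 1.16 CPM, and BECN1 at 102 ± 2.61 and 101 ± 1.06 CPM (SD, n = 3). The BECN1 interval of the log2 fold change was -0.07 to 0.05. Other genes hold 19.8% of the BECN1 words, chiefly CNTD1, which had 0.954% of the counts of BECN1. AMBRA1, an activator of the complex, was at 37.1 ± 0.827 and 38.9 ± 0.552 CPM (edgeR adjusted p = 0.143), and UVRAG, the subunit that replaces ATG14 in the endosomal form of the complex, at 44.8 ± 1.58 and 41.8 ± 1.24 CPM (edgeR adjusted p = 0.0599; SD, n = 3). For both of these genes the groups did not overlap. Summed per kilobase, the 6 genes stood at 317 ± 4.73 CPM per kb before and 308 ± 6.42 CPM per kb after treatment (SD, n = 3; two-sided exact permutation p = 0.2).

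WIPI1 had the largest change of all 41 genes. It encodes a PI3P-binding propeller protein found on forming autophagosomes and lies at chr17:68420948-68457513 on the minus strand. Its levels were 24.9, 24.2 and 27.3 CPM in untreated cells and 52.7, 49.8 and 52.5 CPM with Y-320. All treated libraries were near 50 CPM and all untreated ones near 25 CPM, a log2 fold change of 1.02 (SE 0.0497, edgeR adjusted p = 7.14e-08). Of its 31-base words, 30.97% occur in other genes, chiefly the overlapping gene ARSG, which had 30.7% of the counts of WIPI1 and a log2 fold change of -0.12 that did not pass (edgeR adjusted p = 0.231).

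Both WDR45 and WDR45B, more distant WIPI relatives, also rose. WDR45 went from 18.6 ± 1.10 to 24.2 ± 0.696 CPM (log2 fold change 0.38, edgeR adjusted p = 0.000221) and WDR45B from 99.4 ± 2.76 to 127 ± 1.15 CPM (0.35, edgeR adjusted p = 3.94e-06; SD, n = 3). Of the WDR45 words, 16.8% occur in other genes, chiefly ENSG00000288053. WIPI2, the relative that recruits the conjugation machinery, was at 156 ± 3.73 and 159 ± 1.54 CPM (SD, n = 3), and its interval of -0.02 to 0.08 log2 units lies wholly under the change of WIPI1. The lipid transfer proteins ATG2A and ATG2B were at 54.1 ± 1.83 and 51.0 ± 1.51 CPM and at 32.5 ± 1.87 and 30.1 ± 0.697 CPM, with edgeR adjusted p-values of 0.0861 and 0.0813. ATG9A, the membrane-spanning scramblase of the vesicles that seed autophagosomes, was at 63.8 ± 1.92 and 65.3 ± 2.17 CPM (SD, n = 3; edgeR adjusted p = 0.476), with 35.5% of its words shared with another gene.

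Among the 11 conjugation enzymes, 5 rose and none fell, and the 2 with the largest rises were also the 2 with the lowest untreated CPM of the group. ATG4A, a protease that trims LC3 and GABARAP proteins before conjugation and releases them afterwards, lies at chrX:108091668-108154671 on the plus strand. Its levels were 9.29, 8.73 and 8.88 CPM in untreated libraries and 15.01, 14.3 and 14.7 CPM with Y-320. Neither group spread by as much as 1 CPM, and the log2 fold change was 0.71 (SE 0.0656, edgeR adjusted p = 7.90e-06). ATG16L2, a relative of the scaffold that places LC3 conjugation on the membrane (chr11:72814406-72843674, plus strand), was at 5.31, 5.17 and 5.55 CPM untreated and 8.04, 8.53 and 8.80 CPM treated. The groups were again apart, by a log2 fold change of 0.66 (SE 0.0895, edgeR adjusted p = 0.000132). Other genes hold 8.39% of its words, chiefly FCHSD2, which had 253% of the counts of ATG16L2 and did not pass (edgeR adjusted p = 0.478).

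Levels of ATG4D, another ATG4 protease, were 33.7, 29.5 and 28.6 CPM in untreated libraries and 43.3, 42.9 and 37.9 CPM in Y-320 libraries. It was the most variable of the raised genes in this role, yet the groups did not overlap, with a log2 fold change of 0.43 (SE 0.0698, edgeR adjusted p = 0.000423). Of its words, 11.8% occur in KRI1, which had 169% of the counts of ATG4D and a log2 fold change of -0.04 that did not pass (edgeR adjusted p = 0.447). ATG3, the E2-like enzyme that passes LC3 to lipid, rose from 45.4 ± 0.957 to 53.9 ± 0.651 CPM (log2 fold change 0.25), and ATG12, the ubiquitin-like protein joined to ATG5, from 28.2 ± 1.26 to 33.3 ± 1.02 CPM (0.24; SD, n = 3). Their edgeR adjusted p-values were 0.000143 and 0.00158.

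The other 6 did not pass. ATG7, the E1-like enzyme of both reactions, was at 24.8 ± 1.78 and 26.2 ± 0.888 CPM, ATG5 at 78.4 ± 0.715 and 78.9 ± 3.71 CPM, and ATG10, the E2-like enzyme for ATG12, at 13.8 ± 0.366 and 14.3 ± 0.363 CPM (SD, n = 3). These central enzymes had log2 fold changes of 0.08, 0.01 and 0.05. Other genes hold 13.2% of the ATG10 words, chiefly RPS23, which had 3649% of the counts of ATG10 and fell by 0.13 log2 units. For ATG7 the share was 18.8%, chiefly in VGLL4, which had 226% of its counts. The split of reads is uncertain for both. ATG16L1, the main scaffold, was at 16.0 ± 0.407 and 17.3 ± 0.507 CPM, ATG4B, the major ATG4 protease, at 57.2 ± 2.00 and 60.8 ± 2.40 CPM, and ATG4C at 10.5 ± 0.0881 and 9.62 ± 0.312 CPM (SD, n = 3). The edgeR adjusted p-values of these 3 were 0.131, 0.0968 and 0.194. In the sum per kilobase, conjugation enzymes were at 335 ± 4.10 CPM per kb untreated and 379 ± 2.22 CPM per kb with Y-320 (SD, n = 3; two-sided exact permutation p = 0.1, the smallest that 3 against 3 libraries can give).

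**Figure D2:**
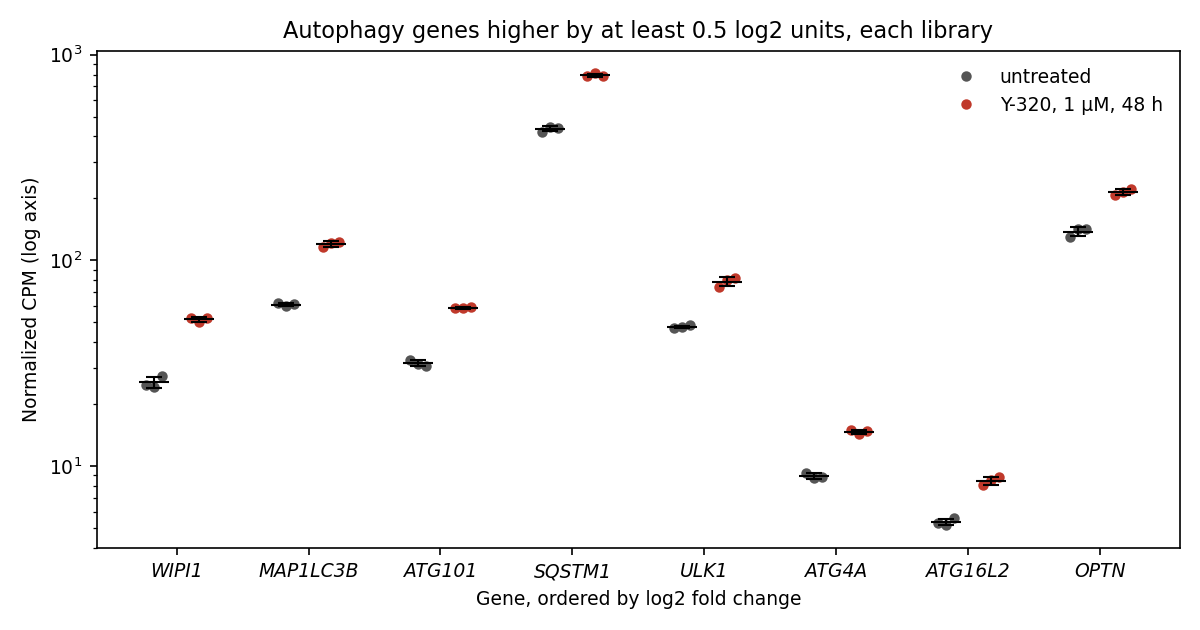
Normalized level in each library (y axis, CPM, log axis) of the 8 autophagy genes with a called log2 fold change of at least 0.5 (x axis, from the largest change on the left). Grey points are the 3 untreated and red points the 3 Y-320 libraries, with the mean and ± 1 SD in black; for all 8 genes every red point lies above every grey point, from ATG16L2 at 5.17 CPM to SQSTM1 at 811 CPM.

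Of the LC3 and GABARAP genes, MAP1LC3B changed by far the most. It encodes LC3B, the protein most used to mark autophagosomes, and lies at chr16:87383953-87404779 on the plus strand. Its levels were 61.7, 59.6 and 61.1 CPM in untreated cells and 116, 121 and 123 CPM with Y-320. The treated libraries lay far above the untreated ones, with a log2 fold change of 0.98 (SE 0.0334, edgeR adjusted p = 6.25e-09). Of its words, 9.98% occur in another gene, chiefly the near-identical MAP1LC3B2, whose row had 3.80% of the counts of MAP1LC3B and a log2 fold change of 0.50 that did not pass (edgeR adjusted p = 0.0562).

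GABARAP, the founding member of the other branch, was at 178, 192 and 191 CPM untreated and 202, 211 and 207 CPM with Y-320. The lowest treated and the highest untreated libraries were close, and the rise was 0.14 log2 units (SE 0.0330, edgeR adjusted p = 0.00408). Of its words, 44.5% occur in other genes, and 33.05% in ENSG00000262526, which had counts in only 1 of the 6 libraries. GABARAPL1 was at 82.3 ± 3.84 and 81.9 ± 2.67 CPM, and GABARAPL2 at 56.4 ± 1.52 and 53.9 ± 4.30 CPM (SD, n = 3), with edgeR adjusted p-values of 0.894 and 0.342. MAP1LC3A could not be tested: it had 4, 1 and 2 estimated counts in untreated and 1 in each Y-320 library, at or near the 3-count floor of 0.131 to 0.144 CPM.

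Levels of different genes were compared per kilobase of median transcript length. On that scale GABARAP was the most abundant of the 5 genes, at 278 ± 11.0 CPM per kb untreated, followed by GABARAPL1 at 126 ± 5.89, GABARAPL2 at 71.4 ± 1.92 and MAP1LC3B at 35.7 ± 0.642 CPM per kb (SD, n = 3). With Y-320, MAP1LC3B reached 70.6 ± 2.18 CPM per kb, which overlapped with GABARAPL2 at 68.2 ± 5.44 CPM per kb (SD, n = 3). That order depends on the length used: with merged exon length, MAP1LC3B went from 12.1 ± 0.217 to 23.9 ± 0.736 CPM per kb, above GABARAPL1 at 20.2 ± 0.660 and GABARAPL2 at 17.9 ± 1.43 CPM per kb in the Y-320 libraries without overlap (SD, n = 3). MAP1LC3B thus made up 6.99% ± 0.330 of the summed level in untreated and 12.4% ± 0.0542 in Y-320 libraries (SD, n = 3; two-sided exact permutation p = 0.1, the smallest possible). GABARAP held 54.4% ± 0.486 and 53.8% ± 0.886, GABARAPL1 24.7% ± 0.423 and 21.9% ± 0.594, and GABARAPL2 13.97% ± 0.633 and 11.9% ± 0.645 (SD, n = 3). With merged exon length in place of median transcript length, the MAP1LC3B shares were 8.22% and 14.2%. The 5 genes together rose from 511 ± 15.9 to 572 ± 15.2 CPM per kb (SD, n = 3; exact p = 0.1).

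Cargo receptors had the largest change in summed level of the 7 roles, 1.56-fold, from 1024 ± 23.7 to 1598 ± 26.0 CPM per kb (SD, n = 3; two-sided exact permutation p = 0.1), or 1.40-fold with merged exon length. Most of that came from SQSTM1, which encodes p62, a receptor that gathers ubiquitinated proteins and binds LC3 (chr5:179806398-179838078, plus strand). Its levels were 422, 445 and 440 CPM in untreated libraries and 786, 811 and 788 CPM with Y-320. Every treated library was far above every untreated one, and the log2 fold change was 0.87 (SE 0.0257, edgeR adjusted p = 2.71e-09). SQSTM1 made up 58.0% ± 0.289 of the receptor total per kilobase without and 67.9% ± 0.433 after treatment (SD, n = 3), or 36.9% and 48.0% with merged exon length. Of its words, 24.2% occur in other genes, chiefly MRNIP, which had 2.44% of its counts.

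OPTN, optineurin, a receptor for damaged mitochondria and bacteria (chr10:13099449-13138308, plus strand), was at 129, 142 and 141 CPM untreated and 207, 215 and 222 CPM with Y-320. It rose by 0.64 log2 units (SE 0.0404, edgeR adjusted p = 4.64e-07) with no overlap. CALCOCO2, or NDP52, which acts in the same pathways, was at 68.3, 71.0 and 64.1 CPM and then 91.7, 96.6 and 94.5 CPM. All treated values were again the higher, by a log2 fold change of 0.48 (SE 0.0403, edgeR adjusted p = 4.27e-06).

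No rise was called among the remaining receptors. NBR1, which works with p62 in gathering ubiquitinated cargo, was at 206, 217 and 215 CPM untreated and 197, 201 and 203 CPM with Y-320. The groups came within a few CPM of each other; the fall of 0.08 log2 units (SE 0.0283, edgeR adjusted p = 0.0295) is the smallest called change among the members. This call did not hold in edgeR with library size alone as the scaling (adjusted p = 0.0505), nor without untreated replicate 2 (0.106) or 3 (0.0877), nor without Y-320 replicate 1 (0.0888) or 2 (0.0725). TAX1BP1, which joins p62 and NBR1 at protein aggregates, was at 352 ± 8.26 and 338 ± 4.19 CPM (SD, n = 3; edgeR adjusted p = 0.0755). Its share of the receptor total was 15.5% ± 0.462 and 9.53% ± 0.104 (SD, n = 3), or 24.5% and 16.8% with merged exon length.

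RETREG1, or FAM134B, a receptor for the endoplasmic reticulum, was scarce, at 4.94, 3.84 and 3.72 CPM in untreated and 4.99, 4.85 and 6.09 CPM in Y-320 libraries. Untreated replicate 1 lay inside the range of the treated libraries. Its log2 fold change of 0.35 (SE 0.147) was the largest in size among genes that did not pass (edgeR adjusted p = 0.0708), with a 95% interval of 0.06 to 0.64, and without untreated replicate 1 it passed at 0.49 (edgeR adjusted p = 0.0210).

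**Figure D3:**
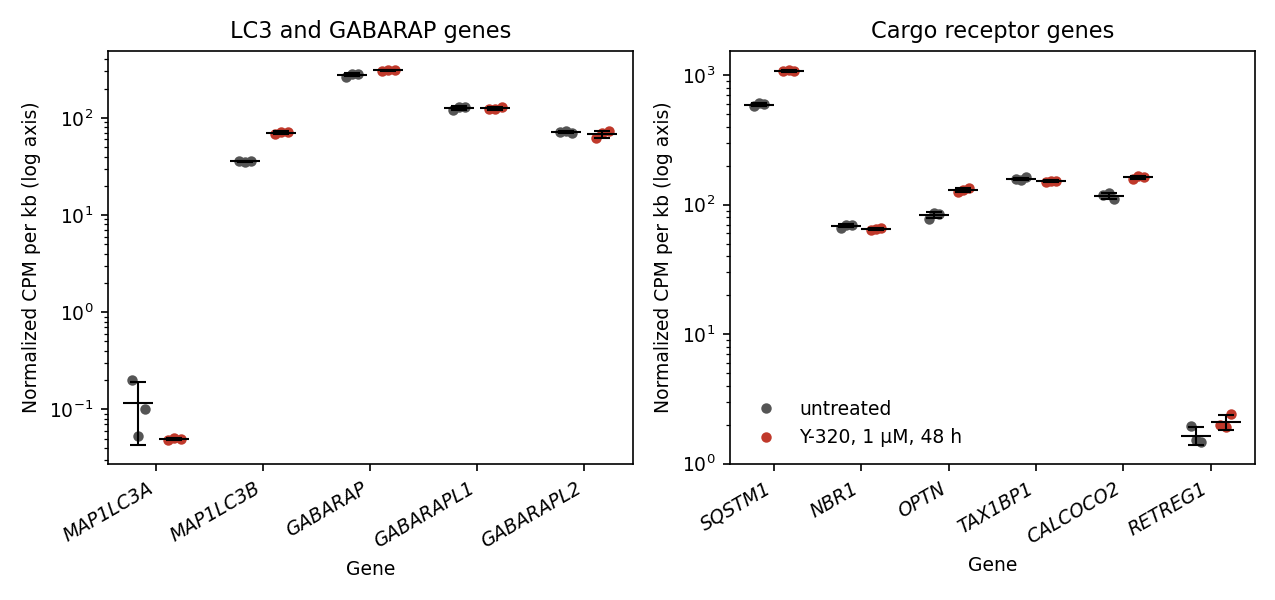
Normalized CPM per kilobase of median transcript length (y axis, log axis) of the LC3 and GABARAP genes on the left and the cargo receptor genes on the right (x axis). Grey points are the 3 untreated and red points the 3 Y-320 libraries, with mean and ± 1 SD in black; on this length scale MAP1LC3B moves from below GABARAPL2 to its level, SQSTM1 leads the receptors in both groups, and MAP1LC3A rests on 1 to 4 counts per library.

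No rise was called among the adaptors, which act late in the pathway. EPG5, a tether that lets autophagosomes fuse with late endosomes and lysosomes, was at 24.2, 24.6 and 26.4 CPM in untreated and 20.4, 21.1 and 19.1 CPM in Y-320 libraries. All treated libraries were the lower, by 0.31 log2 units (SE 0.0563, edgeR adjusted p = 0.00104), the largest fall of any member. FYCO1, which links autophagosomes to kinesin for transport, was at 40.05 ± 1.34 and 39.2 ± 1.14 CPM (SD, n = 3; edgeR adjusted p = 0.577).

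Since some close relatives moved apart and others together, 9 pairs of related members were compared within each library as a log2 ratio of CPM. The pairs were chosen after the values had been seen, so the differences describe these libraries. In 6 pairs the ratio was higher in all Y-320 than in all untreated libraries. The two-sided exact permutation p of each was 0.1, the smallest possible, and 0.15 adjusted over the 9 pairs. Because the pairs were chosen this way, these p-values are no evidence that the ratios differ. WIPI1 over WIPI2 shifted the most, by 0.99 log2 units (SE 0.0791), followed by MAP1LC3B over GABARAP at 0.84 (SE 0.0489). The others were ULK1 over ULK2 at 0.66 (SE 0.0678), ATG4A over ATG4B at 0.62 (SE 0.0513), ATG4D over ATG4C at 0.56 (SE 0.108) and ATG16L2 over ATG16L1 at 0.55 (SE 0.0449). By the choice of pairs, the first gene of these 6 belonged to the 17 that rose, and of their partners GABARAP alone also did. The ratio overlapped between groups for WDR45 over WDR45B, a difference of 0.03 (SE 0.0766, exact permutation p = 0.7), for ATG2A over ATG2B at 0.03 (SE 0.0516, exact permutation p = 0.6) and for GABARAPL1 over GABARAPL2 at 0.06 (SE 0.0739, exact permutation p = 0.5).

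Per kilobase of median transcript length, ULK1 was at 0.936 times the level of ULK2 in untreated and 1.48 times in Y-320 cells. With merged exon length it was the higher of the pair in both groups, at 2.58 and 4.07 times, so whether the order crossed depends on the length used. WIPI1 went from 0.312 to 0.620 times the level of WIPI2 (0.430 to 0.856 with merged exon length) and ATG16L2 from 0.243 to 0.357 times that of ATG16L1 (0.237 to 0.348). ATG4A went from 0.0807 to 0.124 times the level of ATG4B, or from 0.355 to 0.548 times with merged exon length. In the latter 3 pairs the relative stayed the higher on both length scales.

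**Figure D4:**
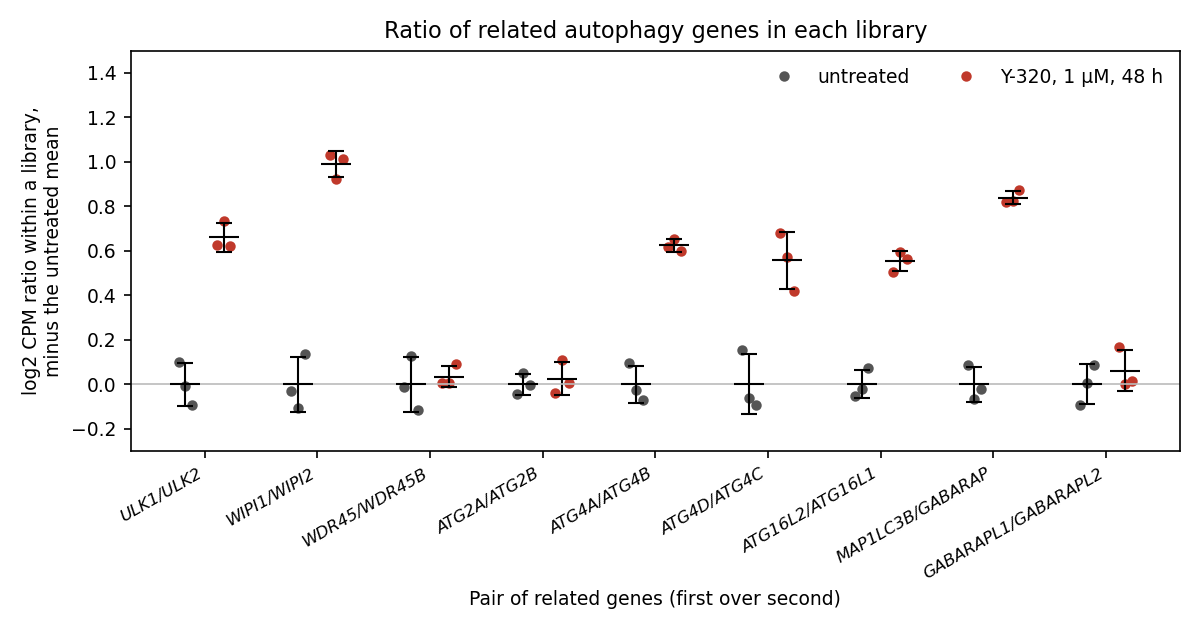
Log2 ratio of CPM between related autophagy genes in each library, minus the mean of the untreated libraries (y axis), for 9 pairs written as first over second gene (x axis). Grey points are untreated and red points Y-320 libraries (3 each), with mean and ± 1 SD in black; the red points stand apart from the grey ones in 6 pairs, by 0.55 to 0.99, and overlap them in the pairs WDR45/WDR45B, ATG2A/ATG2B and GABARAPL1/GABARAPL2.

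Genes around this machinery were taken from 5 lists of 66 other autophagy genes, of which 65 were tested, 23 rose, 16 fell and 26 did not pass, with a median log2 fold change of 0.09. The 35.4% that rose stands beside 26.2% of all genes tested, and the 24.6% that fell is at the 25.4% of all genes. Among 8 transcription factors known to act on autophagy genes, 4 rose and 2 fell. DDIT3, or CHOP, a stress-induced factor, was at 11.3, 11.2 and 10.5 CPM untreated and 35.5, 36.9 and 40.6 CPM treated, a log2 fold change of 1.78 (SE 0.0648, edgeR adjusted p = 1.01e-08). ATF4, the main factor of the integrated stress response, went from 207, 212 and 212 CPM to 440, 457 and 448 CPM, a change of 1.09 (SE 0.0247, edgeR adjusted p = 7.52e-10). For both the treated libraries lay far above the untreated ones. Words that also occur in other genes were 28.9% for DDIT3, chiefly in MARS1, and 26.4% for ATF4, chiefly in ATF4P3. TFEB, a master regulator of lysosome and autophagy genes, was lower in all treated libraries, at 10.2 ± 1.17 and 7.26 ± 0.744 CPM (SD, n = 3), a log2 fold change of -0.50 (edgeR adjusted p = 0.00336). MITF, of the same family, fell by 0.25 log2 units and TFE3 rose by 0.20.

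Subunits of mTORC1 and AMPK, the kinases that restrain and activate ULK1, were listed together with STK11, a kinase upstream of AMPK. Of these 12 genes, 6 rose (50%), STK11 among them, and 2 fell (16.7%), beside 26.2% and 25.4% of all genes tested. Their median size of change was 0.19 log2 units, close to the 0.21 of all genes, and no called change reached 0.5. The largest changes were a fall of 0.26 log2 units in PRKAG2, an AMPK gamma subunit, and a rise of 0.24 in AKT1S1, an mTORC1 subunit (edgeR adjusted p = 0.000501 and 0.000281). In the fusion list, which holds SNAREs and tethers, 1 of 14 rose and 3 fell. The gene that rose was YKT6, a SNARE of autophagosome fusion and of secretory traffic, at 198 ± 6.10 and 314 ± 4.96 CPM (SD, n = 3; log2 fold change 0.66, edgeR adjusted p = 2.94e-08). Of its words, 28.9% occur in other genes, chiefly CAMK2B. The largest fall there was that of VPS41, a subunit of the HOPS tether, by 0.23 log2 units (edgeR adjusted p = 5.55e-05). STX17, the SNARE specific to autophagosomes, did not pass (edgeR adjusted p = 0.0595).

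Other factors of autophagosome formation gave 6 higher and 3 lower of 13 tested, and MAP1LC3C was too low to test. ATG9B, the relative of ATG9A, went from 3.39, 4.21 and 5.78 CPM to 8.16, 8.75 and 9.04 CPM, with no overlap and a log2 fold change of 0.95 (SE 0.162, edgeR adjusted p = 0.000644). TP53INP1, which binds LC3 and is also a p53 target gene, fell from 28.1 ± 2.19 to 17.5 ± 1.35 CPM (SD, n = 3), by 0.68 log2 units (edgeR adjusted p = 2.29e-05).

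Selective autophagy receptors and kinases outside the 42 genes were split evenly, with 6 higher, 6 lower and 6 not past the test. BNIP3, a receptor on mitochondria, was at 34.3, 38.2 and 38.4 CPM untreated and 127, 143 and 147 CPM treated, a log2 fold change of 1.91 (SE 0.0625, edgeR adjusted p = 4.89e-09), larger than that of any member. Of its words, 22.3% occur in other genes, chiefly BNIP3P1. STBD1, a receptor for glycogen, rose by 0.72 (SE 0.138, edgeR adjusted p = 0.00136), and 88.5% of its words occur in another gene. BNIP3L, or NIX, the relative of BNIP3, rose from 70.9 ± 2.86 to 113 ± 2.45 CPM (SD, n = 3; log2 fold change 0.68, edgeR adjusted p = 1.18e-07). PINK1, the kinase that starts the other, ubiquitin-dependent route of mitophagy, fell by 0.33 log2 units (edgeR adjusted p = 1.16e-06), and TBK1, which phosphorylates OPTN and p62, fell by 0.28 (edgeR adjusted p = 0.000848). Of the PINK1 words, 40.95% occur in other genes, chiefly PINK1-AS (37.8%), and only 1.33% in other genes of the deposited table. How far reads of PINK1-AS entered the PINK1 count was not tested. NCOA4, the receptor for ferritin, fell by 0.27 (edgeR adjusted p = 2.35e-05). Not every mitochondrial receptor rose. FUNDC1 had the largest fall of this list, 0.39 log2 units (edgeR adjusted p = 0.0101). PHB2 fell by 0.15 log2 units (edgeR adjusted p = 0.000494). PINK1, TBK1, NCOA4, BNIP3L, FUNDC1 and PHB2 were singled out after their values were seen.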

How the data were processed

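The 3 untreated and 3 Y-320 libraries of HDQ-P1 cells were grouped as the labels give them. The authors deposited estimated counts per gene, not normalized, which the submitters' processing notes credit to kallisto 0.46.1 on GRCh38 (hg38). The Ensembl release and strand setting are not given in the sources used here. Counts without strand cannot separate overlapping genes, and kallisto divides shared reads between near-identical ones.

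Estimated counts were rounded (70.4% of values above 0 were not within 0.001 of a whole number) and matched to GENCODE 44. edgeR 4.0.16 in R 4.3.3 filtered genes (filterByExpr, minimum count 10, minimum total 15), scaled them by TMM and fitted a quasi-likelihood model of treatment alone over 16580 genes. Threshold: Benjamini-Hochberg adjusted p of 0.05 over all genes. CPM are TMM-normalized and were divided by median transcript length in kb to compare genes, with the merged length of all exons as an alternative. Summed levels, shares and ratios were compared by two-sided exact permutation tests. Shared sequence was the percent of 31-base words found in other genes on either strand. DESeq2 1.42.0 and limma 3.58.1 were alternatives. The edgeR step was first tested on simulated data. Plots came from matplotlib 3.10.9, and tables from pandas 2.3.3 and scipy 1.17.1 in Python 3.11.15.

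All 42 members are named. Values per library are given for called changes of at least 0.5, the largest change in each role, the largest uncalled change and genes that failed the filter; the 2 largest called changes of each other list, and any of at least 1, are named. The members, roles, lists and tests were chosen with earlier results of these data known, so no list was tested. Depth limits low genes: 3 counts are 0.131 to 0.144 CPM, and this floor covers counting error only. The value of 1 marker gene is not reported here.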

Additional observations from a re-analysis of the deposited data

How the results depend on the processing

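The 20 calls among the autophagy genes were kept, with none gained, under no filter, a stricter filter (10 counts or more per library), RLE scaling, unrounded counts, DESeq2 and limma-voom. No log2 fold change that had passed the threshold changed sign under any alternative. Upper-quartile scaling, which moved the median of all genes by -0.03, gave 7 lower autophagy genes in place of 3, adding ATG2A, ATG2B, TAX1BP1 and UVRAG, and a median log2 fold change of 0.049 in place of 0.078. NBR1 was the only call lost, under library size alone, without 4 of the 6 libraries in turn and at an adjusted p of 0.01. Leaving out 1 library at a time gave 17 to 18 higher and 2 to 3 lower genes, and a median of 0.068 to 0.115, the highest without untreated replicate 3. It brought ATG2B past the threshold without untreated replicate 2 (edgeR adjusted p = 0.0192) and ATG4B without Y-320 replicate 2 (edgeR adjusted p = 0.0407). With merged exon length the MAP1LC3B share was 8.22% untreated and 14.2% with Y-320. Leaving out the 5 tested genes with over 20% of words shared left 13 higher and 3 lower of 36. Replicate numbers are shared between the groups. Deviations of same-numbered libraries correlated at -0.00236 to 0.0155, and those of differently numbered libraries at -0.0439 to 0.0404. Whether same-numbered libraries shared a culture or batch cannot be told from this, since the differently numbered ones spread more widely. With a replicate block, 17 were higher and 3 lower, and over all genes 4285 and 4159 in place of 4336 and 4210.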
